A study of Mus musculus with 27 samples.

Results

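Genes of the smooth muscle contractile apparatus, which are also used to mark myofibroblasts, were followed in the tibialis anterior muscle of mice after volumetric muscle loss (VML), the removal of a block of muscle too large for the tissue to rebuild. The 7 genes Acta2, Tagln, Myh11, Cnn1, Actg2, Tpm4 and Lmod1 were chosen by symbol from 54532 genes in a table of FPKM values (fragments counted per length of gene and per size of library, a level that can be compared between genes), and each symbol named a row. The 27 samples came from 8-week-old male C57BL/6 mice of no stated transgene or drug treatment: 5 muscles without injury and 5, 6, 6 and 5 muscles taken 3, 7, 14 and 21 days after 40% of the tibialis anterior was excised. The design text gives the excision as unilateral and the methods describe both legs, and neither ties a muscle to a mouse, so p-values measure the spread between these samples, some of which may share an animal. Whole muscle was homogenized, so that the measured RNA came from muscle fibers, vessels, connective tissue and invading cells together. In such bulk samples fewer cells of a type and less RNA per cell cannot be told apart.

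Smooth muscle cells of vessel walls, the pericytes of capillaries and the myofibroblasts of healing wounds share a set of contractile proteins that skeletal muscle fibers replace with their own isoforms. Thin filaments of smooth muscle actin (Acta2 in vessels, Actg2 mainly in gut and other viscera) carry tropomyosin, calponin (Cnn1) and transgelin (Tagln, also called SM22), and slide along filaments of smooth muscle myosin (Myh11). Leiomodin (Lmod1) nucleates actin filaments in smooth muscle, and Tpm4 is a tropomyosin of the general cytoskeleton present in most non-muscle cells as well. Myofibroblasts are recognised by Acta2 in stress fibers, whereas Myh11 is held to mark differentiated smooth muscle. Many of these genes are controlled by serum response factor (SRF), which binds a DNA element called the CArG box together with myocardin or the myocardin-related factors.

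The deposited annotation places Acta2 (ENSMUSG00000035783) on the minus strand of chromosome 19 from 34241090 to 34255336, and Actg2 (ENSMUSG00000059430) on the minus strand of chromosome 6 from 83512905 to 83536265. Myh11 (ENSMUSG00000018830) lies on the minus strand of chromosome 16 from 14194535 to 14291372 and Tpm4 (ENSMUSG00000031799) on the plus strand of chromosome 8 from 72134975 to 72153142. Cnn1 (ENSMUSG00000001349) and Tagln (ENSMUSG00000032085) are both on chromosome 9, from 22099216 to 22109630 on the plus strand and from 45929619 to 45936058 on the minus strand. Lmod1 (ENSMUSG00000048096) lies on the plus strand of chromosome 1 from 135324807 to 135368065. All are annotated as protein coding, and 6 of the 7, all but Acta2, have the same coordinates in GENCODE M21 (GRCm38).

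Reads of Tagln could not be assigned cleanly. In GENCODE M21, 1349 of its 1988 exonic bases (67.9%) overlap genes on the opposite strand, 1241 of them in the antisense gene Gm48529 and 108 in Pcsk7, and the libraries kept no strand. Tagln had 0 to 56 reads per sample (median 18), and its level is therefore uncertain. Tpm4 shares 134 of 2203 exonic bases (6.08%) with Gm26586, and the other 5 members share none. The actins are close relatives, but of the 1986 stretches of 50 bases in the longest Acta2 transcript none occurs in Acta1, Actc1, Actg2 or Actb, and 7 (0.352%) occur in Actg1.

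Acta2 and Tpm4 were the members that rose after injury, and their promoters are shown to set their sequences side by side. RefSeq windows of GRCm38.p6, from 250 bases before to 50 bases after the RefSeq transcription start, were matched for 4 members, Acta2, Cnn1, Tpm4 and Lmod1. RefSeq starts differ from the deposited gene coordinates. The Tpm4 window lies wholly inside the deposited gene, which begins at 72134975, so bases before that point were not searched. The RefSeq start of Acta2 lies upstream of the deposited gene, which begins at 34255336 on the minus strand. Both strands were searched for the CArG box, for a CArG-like form with at most 1 G or C among the 6 inner bases, and for the MCAT element (CATTCC). The Acta2 window (chr19:34255324-34255623, minus strand) and the Tpm4 window (chr8:72135038-72135337, plus strand) are printed 5′ to 3′ with CArG-like and MCAT matches in capitals.
Acta2: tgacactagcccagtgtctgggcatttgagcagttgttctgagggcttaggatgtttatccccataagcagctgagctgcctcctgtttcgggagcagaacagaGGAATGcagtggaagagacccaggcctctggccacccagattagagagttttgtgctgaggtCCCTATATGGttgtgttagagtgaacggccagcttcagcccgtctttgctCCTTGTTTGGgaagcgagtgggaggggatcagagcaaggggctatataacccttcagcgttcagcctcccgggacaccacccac
Tpm4: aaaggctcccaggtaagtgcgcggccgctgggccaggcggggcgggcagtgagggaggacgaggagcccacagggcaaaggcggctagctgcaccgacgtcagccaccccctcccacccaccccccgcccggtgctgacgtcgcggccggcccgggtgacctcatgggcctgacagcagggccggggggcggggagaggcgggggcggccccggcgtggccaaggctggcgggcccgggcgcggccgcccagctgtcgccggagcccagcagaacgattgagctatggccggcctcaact
The Acta2 window held 2 CArG-like matches, at -84 to -75 and -34 to -25 from the RefSeq start, and 1 MCAT match at -146 to -141. Lmod1 held 1 MCAT match at -130 to -125, and the Cnn1 and Tpm4 windows held no match to any of these motifs. Among 32851 promoter windows of the same length, 1.63% held a CArG box, 9.98% a CArG-like form and 14.7% an MCAT element. These are matches of letters and not measured binding sites.

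Recovered reads totalled 14376395 to 24436763 per sample (median 17398586). Acta2 was covered by 1151 to 7450 reads, Tpm4 by 502 to 7321 and Myh11 by 367 to 1570, whereas Lmod1 had 59 to 213, Cnn1 23 to 146 and Actg2 4 to 132. A pair of libraries stood apart in their marker genes. Day 3 replicate 5 had a summed FPKM of 312 over 7 macrophage and leukocyte markers, against 997 to 2137 in the other day 3 samples, and day 7 replicate 5 had 2006, against 44.8 to 409 in the other day 7 samples. The value of each thus lay within the range of the other's group for these markers, which goes against its label. Other values were mixed. The pericyte sums of 216 and 113 also lay with the other's group. Acta2 of day 3 replicate 5 (103) lay between the other day 3 samples (157 to 175) and the other day 7 samples (43.3 to 81.2). Tpm4 of day 7 replicate 5 (95.4) was far above its group. Tpm4 of day 3 replicate 5 (61.2) lay with its own group, and Acta2 of day 7 replicate 5 (109.6) was below the other day 3 samples. The labels were kept as given, whether the samples were exchanged was not tested, and the results on the called members, ratios, shares and correlations are also given without them.

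Without injury the members spanned a wide range of levels. The median FPKM was 59.0 for Acta2, 19.4 for Tpm4, 6.76 for Myh11, 1.72 for Lmod1, 1.28 for Cnn1, 0.368 for Tagln and 0.336 for Actg2. The ranges of Acta2, Tpm4 and Myh11 did not overlap each other or those below them, while those of Lmod1, Cnn1, Actg2 and Tagln overlapped with their neighbours in this order. All 7 members passed the filter on low values, which asked for 5 samples at or above an FPKM of 0.5.

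At day 3 the members that passed the test went in both directions. Acta2 and Tpm4 rose and Myh11 fell, and Tagln, Cnn1, Actg2 and Lmod1 did not pass the test (limma on log2(FPKM + 1) over 14630 genes, adjusted p under 0.05). The 2 that rose are to be read against 23.4% of all genes tested that rose, and the 1 that fell against 19.8% that fell. For 7 genes both counts are near those shares. The median log2 fold change of the 7 was -0.10, beside 0.012 over all genes tested. Tpm4 was also higher at days 7 and 14, and no member passed the test against uninjured muscle at day 21.

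**Figure D1:**
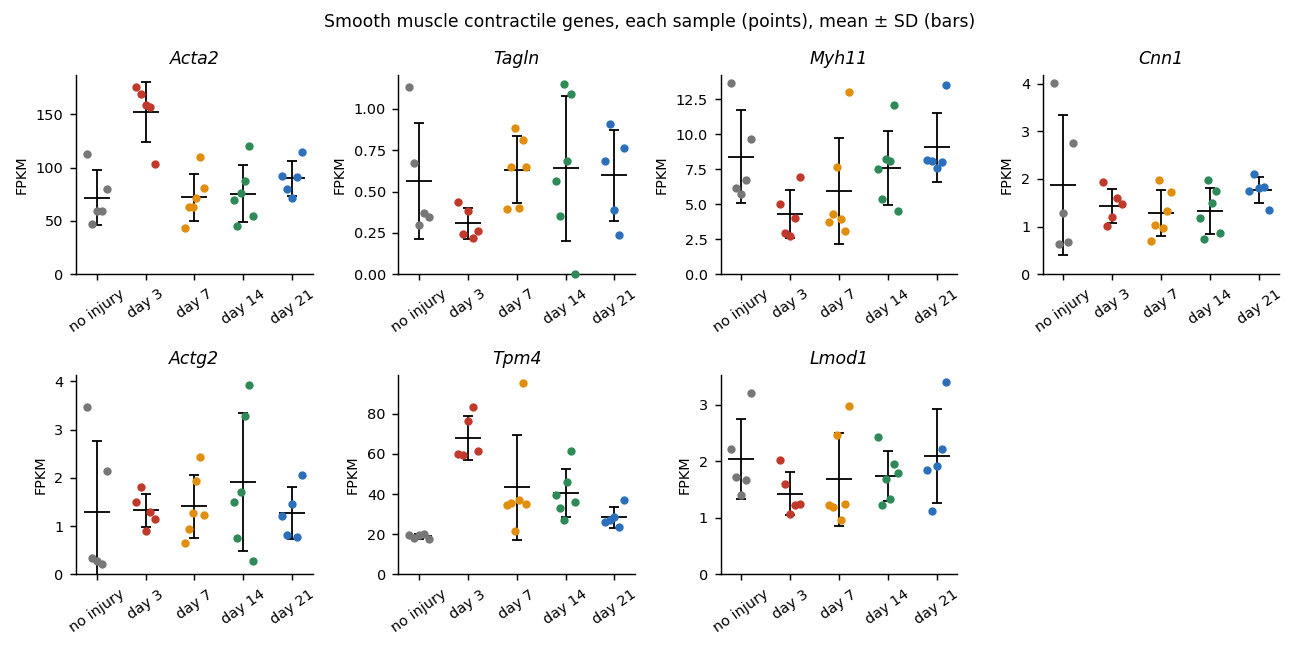
FPKM (linear axes from 0) of the 7 members in each sample, by group, with group mean and SD as horizontal bars. Acta2 was highest at day 3, where 4 of 5 samples lay above every uninjured one, Tpm4 was above all uninjured samples at every time point, and Myh11 was lowest at day 3. The lower SD bar of Actg2 without injury is cut off at 0.

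Acta2, the actin of vascular smooth muscle and of myofibroblast stress fibers, had FPKM values of 113, 47.4, 59.0, 58.9 and 79.4 without injury. At day 3 the values were 175, 169, 159, 157 and 103. The last of these, replicate 5, was the only day 3 sample within the uninjured range. The mean rose from 71.6 ± 25.9 to 152 ± 28.3 (SD, n = 5 each), a log2 fold change of 1.12 ± 0.25 (SE, limma adjusted p = 8.97e-04) or 2.18-fold on the log2(FPKM + 1) scale. An exact permutation test of those samples gave p = 0.0159 (two-sided), where 0.00794 is the smallest p that 5 samples against 5 allow. Without day 3 replicate 5 the log2 fold change was 1.26 (limma adjusted p = 4.76e-04).

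At later times Acta2 did not pass the test. Its FPKM ran from 43.3 to 109.6 at day 7 (median 67.4), from 45.4 to 119.9 at day 14 (median 72.7) and was 91.8, 79.4, 71.5, 91.0 and 115 at day 21. These ranges overlapped that of uninjured muscle, and the log2 fold changes against it were 0.019 ± 0.24, 0.074 ± 0.24 and 0.37 ± 0.25 (SE, limma adjusted p = 0.962, 0.858 and 0.430). When FPKM was rescaled to a common sum, Acta2 passed the test at day 7 with a log2 fold change of 0.74 (limma adjusted p = 0.0411), in a comparison whose median over all genes was 0.46.

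Actg2, the second smooth muscle actin, varied more among uninjured muscles than between groups. Its FPKM without injury was 3.47, 0.336, 0.275, 0.209 and 2.15, so that replicates 1 and 5 stood well above the other 3. At day 3 it was 1.51, 1.81, 0.901, 1.30 and 1.15, all inside the uninjured range. At days 7, 14 and 21 its ranges were 0.646 to 2.43, 0.272 to 3.93 and 0.769 to 2.07. The log2 fold changes were between 0.18 and 0.41 with standard errors of 0.32 to 0.34, and none passed the test.

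Myh11, the myosin heavy chain of differentiated smooth muscle, had FPKM values of 13.7, 6.16, 5.73, 6.76 and 9.69 without injury and 4.99, 2.95, 2.76, 3.99 and 6.96 at day 3. In 4 of 5 day 3 samples it was below every uninjured sample, the exception again being replicate 5. The log2 fold change was -0.81 ± 0.29 (SE, limma adjusted p = 0.0277), and the exact permutation test of these samples gave p = 0.0317. Its level was 1.75-fold lower on this scale. The call was lost when any 1 of 5 of the 10 samples was left out (uninjured replicates 1 and 5, day 3 replicates 2, 3 and 4, with log2 fold changes of -0.63 to -0.80), and with no filter on low values (limma adjusted p = 0.0606). It was also lost when FPKM was rescaled to a common sum (-0.12, limma adjusted p = 0.725) or to each sample's own reads (-0.25, limma adjusted p = 0.440), which move the median of all genes by 0.50 and 0.40. Relative to that median the change of Myh11 was -0.61 and -0.65. Leaving out day 3 replicate 5 gave -0.97 (limma adjusted p = 0.0122).

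Myh11 at day 7 lay between 3.09 and 13 (median 4.13), with 4 of 6 samples below every uninjured one and replicate 6, at 13, the highest. The log2 fold change was -0.52 ± 0.28 (SE, limma adjusted p = 0.169), and -0.75 without day 7 replicate 6 (limma adjusted p = 0.0253). At day 14 it ran from 4.52 to 12.1. At day 21 it was 8.20, 8.06, 7.57, 8.02 and 13.5, each within the uninjured range. The log2 fold changes were then -0.12 ± 0.28 and 0.13 ± 0.29 (SE), and neither passed the test.

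Tpm4, a tropomyosin of the non-muscle cytoskeleton, was the least variable member without injury, at 19.7, 17.9, 19.4, 20.2 and 17.5. At day 3 it was 60.0, 59.4, 76.2, 83.3 and 61.2, and the log2 fold change was 1.78 ± 0.25 (SE, limma adjusted p = 6.18e-06), a 3.44-fold rise (1.81 on the log2 scale without day 3 replicate 5). At day 7 it ran from 21.8 to 95.4 (median 35.2) and at day 14 from 26.9 to 61.4 (median 37.8). Each of these samples was above every uninjured sample, and the log2 fold changes were 1.0 ± 0.24 and 1.01 ± 0.24 (SE, limma adjusted p = 0.00332 and 0.00460). Leaving out any single sample kept all 3 calls. Without day 7 replicate 5, which held the value of 95.4, the day 7 change was 0.74 (limma adjusted p = 0.00514).

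At day 21 Tpm4 was 26.2, 26.9, 28.4, 23.4 and 37.2, again above every uninjured sample, and an exact permutation test of these samples gave p = 0.00794, the smallest that 5 against 5 allow. In the fit of all 27 samples the log2 fold change of 0.55 ± 0.25 (SE) did not pass after adjustment (limma adjusted p = 0.216), whereas a fit of those 2 groups alone gave an adjusted p of 0.0175 for Tpm4 (limma). At days 3, 7 and 14 the exact permutation p of Tpm4 was 0.00794, 0.00433 and 0.00433, where 5 samples against 6 allow no p below 0.00216.

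The remaining members bind or build the smooth muscle thin filament, and none passed the test at any time. Cnn1, calponin, was 4.01, 0.637, 1.28, 0.684 and 2.75 without injury and 1.93, 1.01, 1.21, 1.60 and 1.48 at day 3, with no day 3 sample outside the uninjured range. Its day 21 values were 1.75, 2.11, 1.81, 1.82 and 1.34. Uninjured Cnn1, like Actg2, was highest in replicates 1 and 5. Its log2 fold changes lay between -0.21 and 0.088 with standard errors of 0.22 to 0.23.

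Lmod1, leiomodin, was 2.21, 1.72, 1.40, 1.67 and 3.20 without injury and 2.03, 1.60, 1.07, 1.22 and 1.25 at day 3. In 3 of 5 day 3 samples it was below every uninjured sample, and the log2 fold change was -0.31 ± 0.20 (SE, limma adjusted p = 0.224). It was 1.85, 1.12, 1.92, 2.21 and 3.40 at day 21. Tagln was 1.13, 0.671, 0.300, 0.368 and 0.345 without injury and 0.434, 0.246, 0.380, 0.221 and 0.260 at day 3, and was listed at 0 in day 14 replicate 6. The log2 fold change of Tagln at day 3 was -0.23 ± 0.17 (SE, limma adjusted p = 0.298). It passed the test after quantile normalization only, at -0.46 (limma adjusted p = 0.0287). At such low levels the log2(FPKM + 1) scale shrinks changes, and the ratio of its mean FPKM to uninjured muscle was 0.547.

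**Figure D2:**
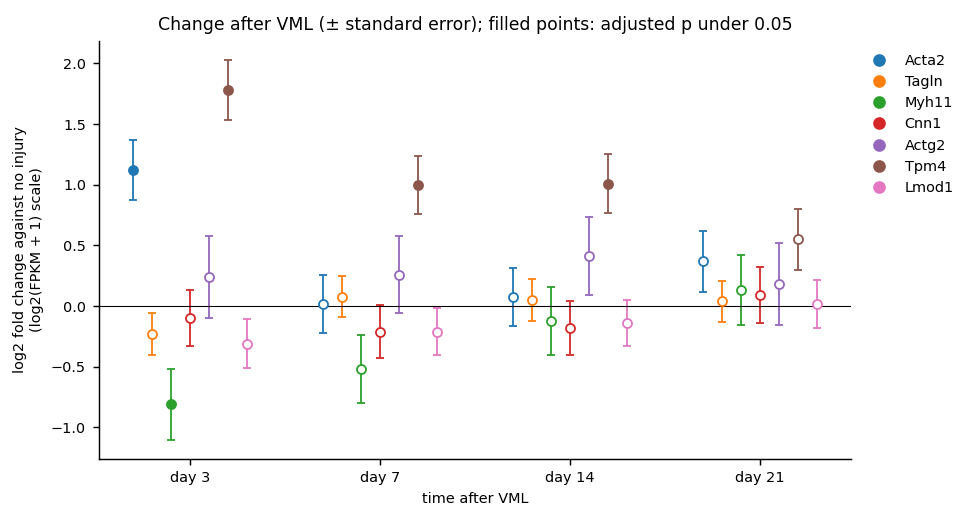
Log2 fold change against uninjured muscle on the log2(FPKM + 1) scale, with standard errors, for each member at days 3, 7, 14 and 21, where filled points passed the test. Acta2, Tpm4 and Myh11 passed at day 3, Tpm4 alone at days 7 and 14, and none at day 21.

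Against uninjured muscle, 1 member (Tpm4) was higher at day 7, where 29.4% of all genes passed in either direction, and 1 (Tpm4) at day 14, where 9.02% of all genes were higher and 11.3% lower. At day 21 none of the 7 passed (limma), beside 3.43% of all genes in either direction, and at an unadjusted p under 0.05 it was 1, Tpm4. The 8 comparisons left 4 members, Tagln, Cnn1, Actg2 and Lmod1, without a call.

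From day 3 to day 21 the 3 genes called at day 3 changed in the opposite direction. They were picked on the same day 3 samples, which favors such a change. Tpm4 was still above every uninjured sample at day 21. Acta2 fell by 0.75 on the log2 scale (SE 0.25, limma adjusted p = 0.0300) and Tpm4 fell by 1.23 (SE 0.25, limma adjusted p = 7.64e-04), while Myh11 rose by 0.94 (SE 0.29, limma adjusted p = 0.0200). Among all genes 9.23% rose and 16.2% fell between those days. The call of Tpm4 held with any single sample left out. That of Acta2 was lost in 6 of 10 such fits and with no filter on low values, and that of Myh11 in 2 of 10 (day 3 replicate 3 and day 21 replicate 5) and after rescaling to a common sum (0.41) or to own reads (0.55). Relative to the median of all genes, which these scalings moved by -0.40 and -0.30, Myh11 was at 0.81 and 0.85. The changes without day 3 replicate 5 were -0.89 for Acta2, -1.27 for Tpm4 and 1.10 for Myh11 (limma adjusted p = 0.0136, 0.00102 and 0.00858).

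Between days 3 and 7 the change of Acta2 was -1.11 ± 0.24 (SE, log2), which missed the threshold after adjustment (limma adjusted p = 0.0670). Tpm4 changed by -0.78 ± 0.24 in the same interval (SE, limma adjusted p = 0.0973). In this comparison none of the members and 0.0478% of all genes passed, and 2 members, Acta2 and Tpm4, had an unadjusted p under 0.05. Without day 7 replicate 5 both passed, at -1.24 for Acta2 (limma adjusted p = 8.39e-04) and -1.04 for Tpm4 (limma adjusted p = 2.54e-04). Without day 3 replicate 5 only Acta2 did, at -1.24 (limma adjusted p = 0.0107). Between days 7 and 14, and between days 14 and 21, no member passed and none had an unadjusted p under 0.05 (limma), where 0.335% and 0% of all genes passed, the latter with 909 genes at an unadjusted p under 0.05.

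Levels taken relative to Myh11 in the same sample do not depend on how the samples were scaled. The ratio of Acta2 to Myh11 ran from 7.69 to 10.3 without injury (median 8.25) and from 14.9 to 57.4 at day 3 (median 39.4), with no overlap. Its range at day 7 was 6.24 to 35.5 (median 13.1), and at days 14 and 21 it was 8.47 to 12.1 and 8.56 to 11.3. The lowest day 3 ratio and the highest day 7 ratio both belonged to replicate 5, and without these the ranges were 34.9 to 57.4 at day 3 and 6.24 to 18.2 at day 7. Uninjured muscles with a high Acta2 thus also had a high Myh11, and that proportion was met again at days 14 and 21.

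The ratios of the other members to Myh11 were taken in the same way. Tpm4 over Myh11 spanned 1.44 to 3.39 in uninjured muscle and 8.80 to 27.6 at day 3, and later 3.27 to 8.00 (day 14) and 2.77 to 3.75 (day 21). Lmod1 over Myh11 spanned 0.161 to 0.330 in uninjured muscle and 0.18 to 0.540 at day 3, and Cnn1 over Myh11 was 0.101 to 0.293 and 0.212 to 0.436. These last ranges overlapped. Actg2 over Myh11 overlapped too, at 0.0309 to 0.254 and 0.165 to 0.612. With day 3 replicate 5 left out, the day 3 ranges were 12 to 27.6 for Tpm4, 0.307 to 0.540 for Lmod1, 0.341 to 0.436 for Cnn1 and 0.302 to 0.612 for Actg2. Those of Cnn1 and Actg2 then no longer overlapped uninjured muscle, and that of Lmod1 still did. This library was left out after the data were seen. Mean FPKM without injury and at day 3 was 8.41 and 4.33 for Myh11, 1.87 and 1.44 for Cnn1, and 1.29 and 1.33 for Actg2. These higher ratios thus went with a lower Myh11, and all day 3 values of Cnn1 and Actg2 lay inside their uninjured ranges. No test was made on ratios.

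**Figure D3:**
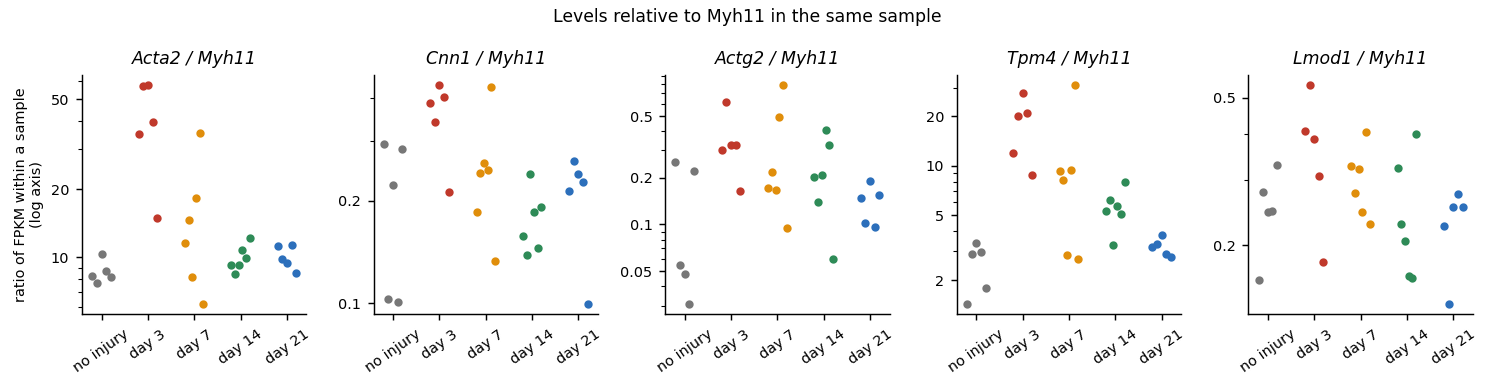
Ratio of the FPKM of Acta2, Cnn1, Actg2, Tpm4 and Lmod1 to that of Myh11 in the same sample, by group, on log axes with a different range in each panel. Acta2 and Tpm4 at day 3 lay wholly above uninjured muscle, and the other ratios overlapped when all samples were kept. Tagln is left out because of its uncertain reads.

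The paralogs of the members, expressed in non-muscle cells or in skeletal fibers, changed in both directions at day 3. Of the 16 paralogs tested, 7 were higher and 4 lower (median log2 fold change 0.37, beside 0.012 over all genes). Over all genes tested, 23.4% were higher and 19.8% lower. The 7 were the cytoplasmic actins Actb and Actg1, the transgelin Tagln2, the myosin Myh9, the calponins Cnn2 and Cnn3 and the tropomyosin Tpm3. Their log2 fold changes were 1.74, 1.40, 2.21, 1.23, 1.64, 1.67 and 1.53 in that order. The 4 that fell act in skeletal fibers, where Tpm1 and Tpm2 are the main tropomyosins, Acta1 the sarcomeric actin and Lmod3 a nucleator of its filaments, and their changes were -1.66, -1.03, -0.77 and -0.59.

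The share of a member within its gene family was taken from summed FPKM. Myh11, Cnn1 and Acta2 are smooth muscle forms, whereas Tpm4 is a form of the general cytoskeleton. Myh11 was 33.1% to 51.7% of the sum of Myh9, Myh10, Myh11 and Myh14 without injury, 12.3% to 35.7% at day 3 and 36.3% to 52.6% at day 21. Cnn1 was 3.93% to 21.0% of the 3 calponins without injury, 1.98% to 3.79% at day 3 and 4.61% to 7.92% at day 21. Acta2, by contrast, rose together with Actb and Actg1, and its share of the non-sarcomeric actins had a median of 22.4% without injury, 18.2% at day 3 and 22.4% at day 21, with overlapping ranges. Tpm4 was 0.196% to 0.254% of the sum of Tpm1 to Tpm4 without injury and 0.921% to 4.18% at day 3. Most of that sum was Tpm1 and Tpm2, whose mean FPKM went from 3654 to 1286 and from 5131 to 2689. Tpm4 over Tpm3 overlapped between uninjured muscle (1.83 to 2.97) and day 3 (2.38 to 4.34). Leaving out day 3 replicate 5 gave day 3 shares of 12.3% to 24.6% for Myh11, 1.98% to 3.79% for Cnn1, 14.6% to 22.3% for Acta2 and 1.30% to 4.18% for Tpm4, and Tpm4 over Tpm3 was 2.38 to 2.87. At day 21 Cnn3 alone of the 16 paralogs passed the test, at 0.71 ± 0.16 (SE, limma adjusted p = 0.0157). Of all genes 3.43% passed then in either direction.

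**Figure D4:**
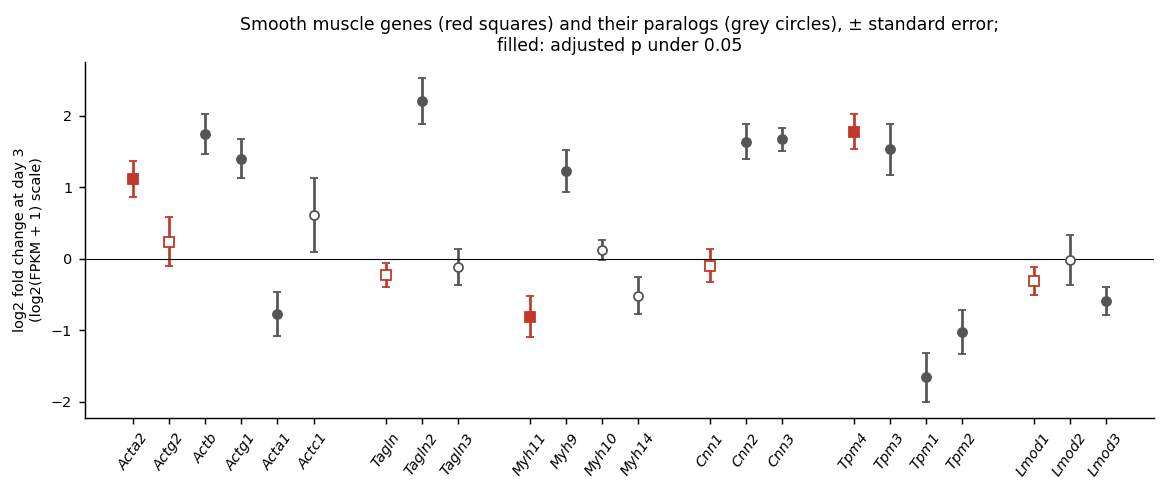
Log2 fold change at day 3 against uninjured muscle (log2(FPKM + 1) scale, with standard errors) of the members (red squares) and their paralogs (grey circles), by family, where filled symbols passed the test. Cnn2, Cnn3, Tagln2 and Myh9 lay above 1, whereas Cnn1 was near 0 and Myh11 was at -0.81. Tagln is drawn at -0.23, but its reads are few and uncertain, and this scale shrinks changes of low genes.

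Other genes of the smooth muscle contractile and adhesion machinery gave a mixed picture. At day 3, 7 of 20 tested were higher and 4 lower, with a median log2 fold change of 0.21. The shares of all genes were 23.4% higher and 19.8% lower. Csrp2, a LIM protein of the actin cytoskeleton, rose by 2.93 on the log2 scale, the cross-linker Actn1 by 1.90, Pgm5 by 1.15, filamin (Flna) by 1.14 and Csrp1 by 0.90. The essential light chain Myl6 and caldesmon (Cald1), which binds the thin filament, rose by 0.66 and 0.48 (limma adjusted p = 0.0133 and 0.0145). Synm, Synpo2, Ppp1r12b and Pdlim7, which fibers express too, fell by 1.56, 1.25, 0.87 and 0.64. Among the 9 that did not pass, log2 fold changes were -0.22 ± 0.27 for the regulatory light chain Myl9, -0.078 ± 0.16 for its kinase Mylk and -0.14 ± 0.13 for smoothelin (Smtn) (SE). At day 21, 2 of the 20 were higher and none lower, beside 3.43% of all genes in either direction. Csrp2 was at 1.04 ± 0.29 (SE, limma adjusted p = 0.0473), and the largest change in the list was 1.13. Pgm5 had a mean FPKM of 3.25 without injury (2.57 to 4.95) and 8.38 at day 21 (5.11 to 11.2).

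Of 9 tested regulators of the SRF pathway, 1 rose and 2 fell at day 3 (median log2 fold change -0.12). Beside this, 23.4% of all genes rose and 19.8% fell. Fhl2, a LIM cofactor, rose by 1.95 (SE 0.34, limma adjusted p = 7.85e-05), and Mef2c and the myocardin-related factor Mkl1 fell by 0.69 and 0.36 (limma adjusted p = 0.0107 and 0.0116). Srf itself was at -0.54 ± 0.23 (SE, limma adjusted p = 0.0559) at day 3 and passed as lower at day 7 (-0.65 ± 0.22, limma adjusted p = 0.0255) and day 14 (-0.91 ± 0.22, limma adjusted p = 0.00487). Myocd, the cofactor that defines smooth muscle, had an FPKM of at most 0.0638 in any sample and was too low to be tested.

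Markers of the cell types that could hold these transcripts moved with time. Of 10 pericyte and mural cell markers, 3 fell at day 3 (Kcnj8 by 1.35, Rgs5 by 0.98 and Abcc9 by 0.89 on the log2 scale) and 1, Mcam, rose by 0.78. These counts are to be read against 19.8% of all genes that fell and 23.4% that rose. The other 6 markers did not pass, and the median log2 fold change of the 10 was -0.14. Without injury the 10 markers summed to an FPKM of 182 to 220.2, and to 111 to 216 at day 3 and 172 to 266 at day 21. None of the 10 was at 0 throughout a group. Day 3 replicate 5, which had the highest Myh11 of its group, also had the highest sum, 216, against 111 to 134 in the other 4. Over all 27 samples log2 levels of Myh11 followed that sum with a Pearson r of 0.83, and within groups of 0.72, as a description across samples that share their scaling. Without the pair of libraries r was 0.82 and 0.66. Rgs5 made up much of the sum, with a mean FPKM of 100.4 without injury and 53.7 at day 3. Acta2 had r of -0.22 with the sum over all samples and 0.15 within groups. Without the pair these were -0.21 and 0.64, the latter near that of Myh11.

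Most myofibroblast and activated fibroblast markers rose at days 3, 7 and 14. At day 3, 12 of 13 were higher (median log2 fold change 2.99), among them the matrix genes Cthrc1 (4.45), Postn (3.95), Col1a1 (3.66) and Col3a1 (3.16). At day 7 it was 13 of 13, at day 14 it was 8 and at day 21 it was 2, Col1a1 (1.44) and Col3a1 (1.61). Of all genes, 23.4% were higher at day 3 and 9.02% at day 14. In either direction 29.4% passed at day 7 and 3.43% at day 21. The summed FPKM of the 13 markers was 31.5 to 83.8 without injury, 470.1 to 858 at day 3 and up to 1179 at day 7 (median 629). At day 7, with 13 of 13 of these markers higher, Acta2 was at a log2 fold change of 0.019. Among 7 resting fibroblast markers 2 rose at day 3, and of 7 endothelial markers 2 fell. Both counts were near the shares of all genes, 23.4% higher and 19.8% lower.

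All 7 macrophage and leukocyte markers rose at day 3, with a summed FPKM of 16.9 to 24.8 without injury and 312 to 2137 at day 3. Log2 levels of Tpm4 followed this sum with r = 0.87 over the 27 samples and 0.68 within groups, and those of Myh11 with r = -0.73 and -0.60. Without the pair of libraries r was 0.85 and 0.38 for Tpm4, and -0.71 and -0.49 for Myh11. Tpm4 followed other sums too. Its r was 0.75 over all samples and 0.26 within groups with myofibroblast markers, and -0.82 and -0.67 with mature fiber markers. Within groups its r with endothelial markers was 0.45, and 0.85 without the pair. With pericyte markers these were 0.02 and 0.59. All 7 mature fiber markers, whose summed FPKM of 84660.0 to 99875 without injury marks skeletal muscle as the labels state, fell at day 3. Of 8 regeneration markers 7 rose, where 23.4% of all genes rose and 19.8% fell. The part that any of these cell types had in the levels of the members was not tested.

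Within groups the members other than Tpm4 were positively correlated. When each sample was taken as its deviation from its group mean on the log2 scale, Pearson r between pairs of the 6 others lay between 0.13 and 0.82 (15 pairs). The highest was that of Acta2 and Actg2 (0.82), followed by Cnn1 and Actg2 (0.68), Myh11 and Lmod1 (0.66) and Myh11 and Cnn1 (0.63). Tpm4 had r of -0.16 with Lmod1, -0.13 with Myh11 and -0.06 with Cnn1. Its r was 0.53 with Acta2, 0.38 with Actg2 and 0.14 with Tagln. With Myh11 it was 0.18 when day 3 replicate 5 and day 7 replicate 5 were left out. Acta2 and Myh11, which moved in opposite directions at day 3, had r = -0.05 over all 27 samples and 0.41 within groups. Without day 3 replicate 5 and day 7 replicate 5 these were -0.02 and 0.78, Acta2 and Actg2 were at 0.85 within groups, the 15 pairs lay between 0.15 and 0.85, and the 6 pairs with Tpm4 between -0.12 and 0.38. The samples share their scaling and the contents of the dissected piece, and no test was made.

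**Figure D5:**
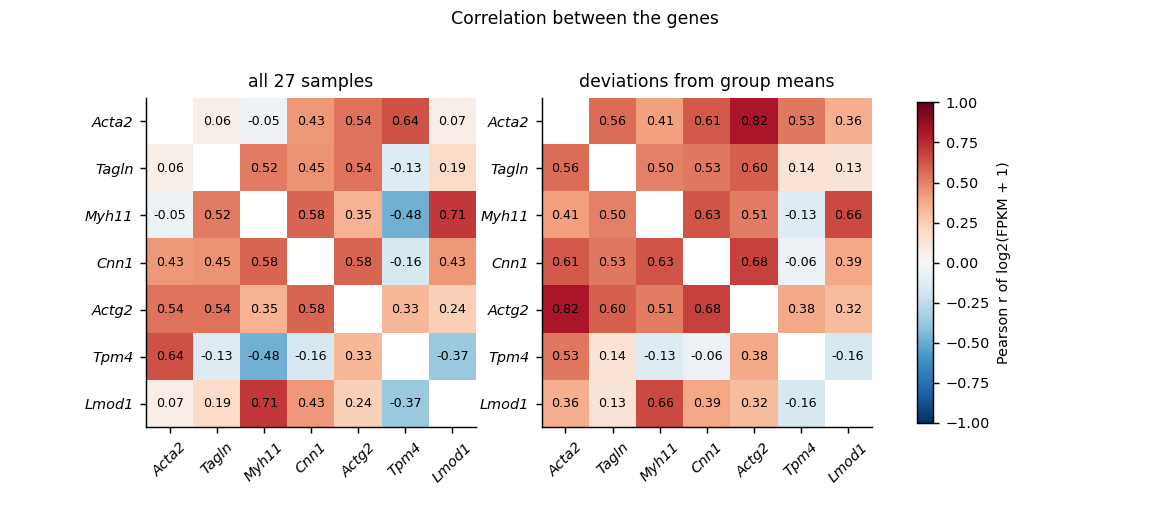
Pearson r between members on log2(FPKM + 1) over all 27 samples (left) and over deviations from group means (right). Acta2 and Actg2 had the highest r within groups (0.82), and Tpm4 was near or below 0 with Myh11, Cnn1 and Lmod1.

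The genes most like each member over the 27 samples, by Pearson r of log2 levels among the 14630 tested, differed between members. Tpm4 was closest to Ywhaq (0.97), Fes (0.96) and Cap1 (0.96), and Myh11 to Ccdc85a (0.89), Lims2 (0.86) and Gucy1a1 (0.85). Acta2 was closest to Cox6a1 (0.85), Ckb (0.83) and Lmf2 (0.82), and Lmod1 to Kctd6 (0.80), Plin4 (0.78) and Arrdc2 (0.74). Likeness was weaker for the members with few reads. Actg2 was closest to Adm (0.74), Ankmy2 (0.69) and Stc1 (0.62), Cnn1 to Myl9 (0.67), Susd5 (0.66) and Ndufs6b (0.62), and Tagln to Gabrr2 (0.66), Polr3f (0.66) and Gm826 (0.63). Without the pair of libraries that stood apart, r of these 21 pairs of genes moved by at most 0.09.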

How the data were processed

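Messenger RNA of whole tibialis anterior was selected with poly-T beads, made into libraries without strand information and sequenced on a NovaSeq instrument. Per the labels, the authors aligned reads with HISAT2 2.0.5 and counted them with featureCounts 1.5.0-p3, and they deposited 1 table of FPKM per gene and sample. The genome build is not given in the sources used here. Deposited FPKM times gene length gave whole reads, within a tolerance of 0.05, for all genes above 0. The denominators of the deposited FPKM were on average 0.782 times a sample's own reads in uninjured muscle, and 1.25, 1.18, 1.04 and 0.897 times at days 3, 7, 14 and 21. How they were set is not given in the sources used here.

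Groups and replicate numbers came from sample titles. log2(FPKM + 1) was fitted with limma 3.58.1 (R 4.3.3), with a mean per group, a variance trend and all 27 samples, for the 14630 genes that had 5 or more samples at or above an FPKM of 0.5. Tests were two-sided with Benjamini-Hochberg adjustment within each of 8 comparisons at 0.05. The fit was also run on simulated data, with independent samples and the same variability setting for all genes. That run does not cover outlying libraries or samples that share an animal, and no result here rests on it. Fold changes on the log2(FPKM + 1) scale understate the change of low genes. Single members were also compared by exact permutation tests. Alternatives covered pseudocount, filter, scaling, variance model, groups fitted, replicate block and each sample left out, and, chosen after the data were seen, the pair of libraries that stood apart left out together. Python 3.11.15, pandas 2.3.3, numpy 2.4.6, scipy 1.17.1 and matplotlib 3.10.9 were used.

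The members and the 10 other gene lists were chosen with earlier results of these data known. Genes named in the text are members, genes of those lists, the 3 genes most like each member, and genes whose exons overlap a member. Promoter sequences are from RefSeq (GRCm38.p6).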

Additional observations from a re-analysis of the deposited data

Results flagged for a closer look

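Among 35 sets of samples, each a member in a group, 3 held a value far from the others, where chance gives about 1 in 20. Acta2 in day 3 replicate 5 was at an FPKM of 103, and the nearest of its group was at 157. Tpm4 in day 7 replicate 5 was at 95.4, and the next highest was at 37.2. Myh11 in day 21 replicate 5 was at 13.5, and the next was at 8.20. The first pair are the libraries that also stood apart in macrophage and leukocyte markers, at summed FPKM of 312 and 2006, each within the range of the other's group. The part of those markers in the values was not tested.

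The changes against uninjured muscle at days 21 and 3 differed for 3 members. Because the uninjured mean cancels, this is the comparison of day 21 with day 3 described above and no separate evidence. The difference was -0.75 for Acta2, -1.23 for Tpm4 and 0.94 for Myh11 on the log2 scale, with adjusted p = 0.0300, 7.64e-04 and 0.0200 in limma. The call of Acta2 was lost in 6 of 10 fits that left out 1 sample and with no filter, and that of Myh11 in 2 of 10 and after both rescalings.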

How the results depend on the processing

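No result reversed under any alternative. The number of members called changed by more than 1.5 times in few cases. At day 7 against no injury it was 2 (Acta2 and Tpm4) in place of 1 when FPKM was rescaled to a common sum, and 1 to 2 with samples left out in turn, 2 without day 7 replicate 6 (Myh11 added). At day 21 against no injury it was 1 (Tpm4) in place of 0 when only those groups were fitted. Between days 7 and 3 it was 0 to 2 with samples left out in turn, and 2 with both day 3 replicate 5 and day 7 replicate 5 left out, an alternative chosen after seeing the data. Between days 21 and 3 it was 1 to 3, and 1 without day 3 replicate 3. The cause of these changes was not tested. Of 1378 values under alternatives, 1321 kept their side of the threshold and their direction, or changed sign by less than a standard error with no call. Of the rest, 19 lost a call, 9 gained one, and 29 with no call in either fit changed sign by more than a standard error. Sign changes with no call came to 110 in all.

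For samples of different groups with the same replicate number, Pearson r was taken between their deviations from group means. Over 51 such pairs r ran from -0.521 to 0.566 (median -0.00315), and 15 were over 0.1, so the numbers were not taken as pairing. Not every sample correlated best with its own number, but 11 of 27 did, where an even pick among the samples of other groups gives 4.73 on average. Column names also carry a letter, whose meaning they do not give, and which departs from the number only in day 21 replicate 4 (F). By letter it was 11 of 27 too, against 4.55. This is a hint from the data, and the sources used here describe no pairing. With a block by number or by letter the count at day 3 was 3, as without it, and neither changed a call of a member. Over all genes at day 21 against no injury, the letter block called 558 higher and 675 lower, in place of 255 and 247. Depth limits Actg2, Cnn1 and Tagln most, which rest on as few as 4, 23 and 0 reads.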
